A study of Trametes gibbosa with 15 samples.

Results

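The transient risers at day 3 were 83 of the 12885 genes in a count table from the white-rot fungus Trametes gibbosa (also called Lenzites gibbosa): their reads were more abundant after 3 days with wood than without it, and near the level without wood again at day 11. All 83 carried identifiers of the reference annotation, of which there were 12038. They were chosen on measured values, as CPM, read counts scaled to a common library total, with TMM factors that set the bulk of genes level between libraries. A member needed a count above 10 in at least 1 control library, a day 3 mean of 5 CPM or more that was at least 1.8 times the control mean, and every day 3 library above every control library. Its day 11 mean had to be below 1.5 times the control mean, and its highest day 11 library below the lower of day 3 replicates 2 and 3. Genes whose libraries ranged 100-fold or more within a group were left out. The levels in control, day 3 and day 11 libraries therefore describe the choice and were not tested, while the libraries of days 5 and 7 entered the choice only through the limit on the range, which applies to every group, and through the scaling. That limit removed 1 gene, gene_8276 (named after its values were seen), for a 241.7-fold range in the control, where its range was 3.37-fold at day 5 and 3.49-fold at day 7.

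Poly-A RNA was sequenced from mycelium of strain CB-1, a single isolate taken from a fruiting body. Stationary cultures in a low-nitrogen liquid medium with added glucose were grown for 10 days, and the control was harvested then, without wood. The other cultures received 2 g of poplar chips and were harvested 3, 5, 7 or 11 days later, so that exposure to wood and age of the culture cannot be told apart. Each of the 5 groups had 15 bottles that gave 3 libraries, which the labels call biological replicates.

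White-rot fungi break down all the main polymers of wood, lignin included, with secreted oxidative enzymes such as laccases and peroxidases together with hydrolases that act on cellulose and hemicellulose. Easily used sugars and nitrogen supply are known to influence when such enzymes are made, so that gene expression in wood-grown cultures is commonly followed over days. The files pair no gene name or product with the identifiers, so the roles of the members are unknown here, none of the planned lists of lignin-modifying, cellulose-degrading, detoxification, transport, stress or growth genes could be matched, and the levels are given by identifier.

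Codes in the labels place the libraries in 2 series. All control libraries and replicate 1 of days 3, 5 and 7 were in the first, with 32472274 to 35419940 estimated counts per library, and the other 9 libraries were in the second, with 40193836 to 48361622. Day 11 against control thus always crosses the series, and series and day cannot be told apart in that comparison. A single day 5 library carries no replicate number in the count table and is called unnumbered. No member was near the limit of detection by counts: the lowest count of any member in any library was 22, in gene_4289 at day 7, and the lowest day 3 count was 159, in gene_10355. All 83 members passed the filter on low counts that left 11386 genes.

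Applied in turn, the count condition left 10564 reference genes, the 1.8-fold condition 994, the 5 CPM condition 788 and the separation of day 3 from control 634. The day 11 mean then left 95, the day 11 maximum 84 and the limit on the range 83. Meeting all other conditions, 439 genes failed the 1.8-fold condition alone, 6 the 5 CPM condition and 124 the day 11 mean. Just inside the day 3 limit of 1.8-fold were gene_3169 at 1.802 and gene_10531 at 1.813, and just outside it gene_10438 at 1.797 and gene_11837 at 1.793. At the 5 CPM limit, gene_11145 with 6.41 CPM and gene_9398 with 8.504 CPM were inside, and gene_2582 with 4.91 CPM and gene_3246 with 4.74 CPM were outside. At the day 11 limit, gene_2070 at 1.495 and gene_9398 at 1.47 times control were inside, and gene_6661 at 1.5 and gene_5997 at 1.507 were outside. The genes on either side of the fold limits lay close together, and those at the 5 CPM limit farther apart. With library totals in place of TMM the same rule took 68 genes, 27 of them among the 83, and without day 3 replicate 1 it took 136 genes, 74 of them among the 83.

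At day 3 the members stood at a median of 2.11 times their control mean, with a range of 1.802 to 5.43, while the median of all 11386 genes was 1.03. At day 5 the median was 1.59 times control, at day 7 it was 1.48, and at day 11 it was 1.25, against 1.04, 1.03 and 1.05 over all genes. The median ratio was 0.711 for day 5 over day 3, 0.923 for day 7 over day 5 and 0.803 for day 11 over day 7. The choice favours a low first and last ratio, since it took members high at day 3 and low at day 11. The last step also spans more days than the others. The measurement is of bulk mycelium, and fewer hyphae that express a gene cannot be told apart from less RNA of that gene per hypha. Means were lower at each step from day 3 through days 5 and 7 to day 11 in 58 of the 83, or 69.9%, against 8.78% of all genes, a share that the choice itself favours. The mean was highest at day 3 in 81 members, and the share over all genes is not given here. The choice had already set the day 3 mean above those of control and day 11, so only days 5 and 7 could exceed it. All day 5 libraries were below all day 3 libraries in 35 members (42.2%; 3.97% of all genes), and all day 7 libraries were in 51 (61.4%; 8.05% of all genes), where day 3 was again part of the choice.

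**Figure D1:**
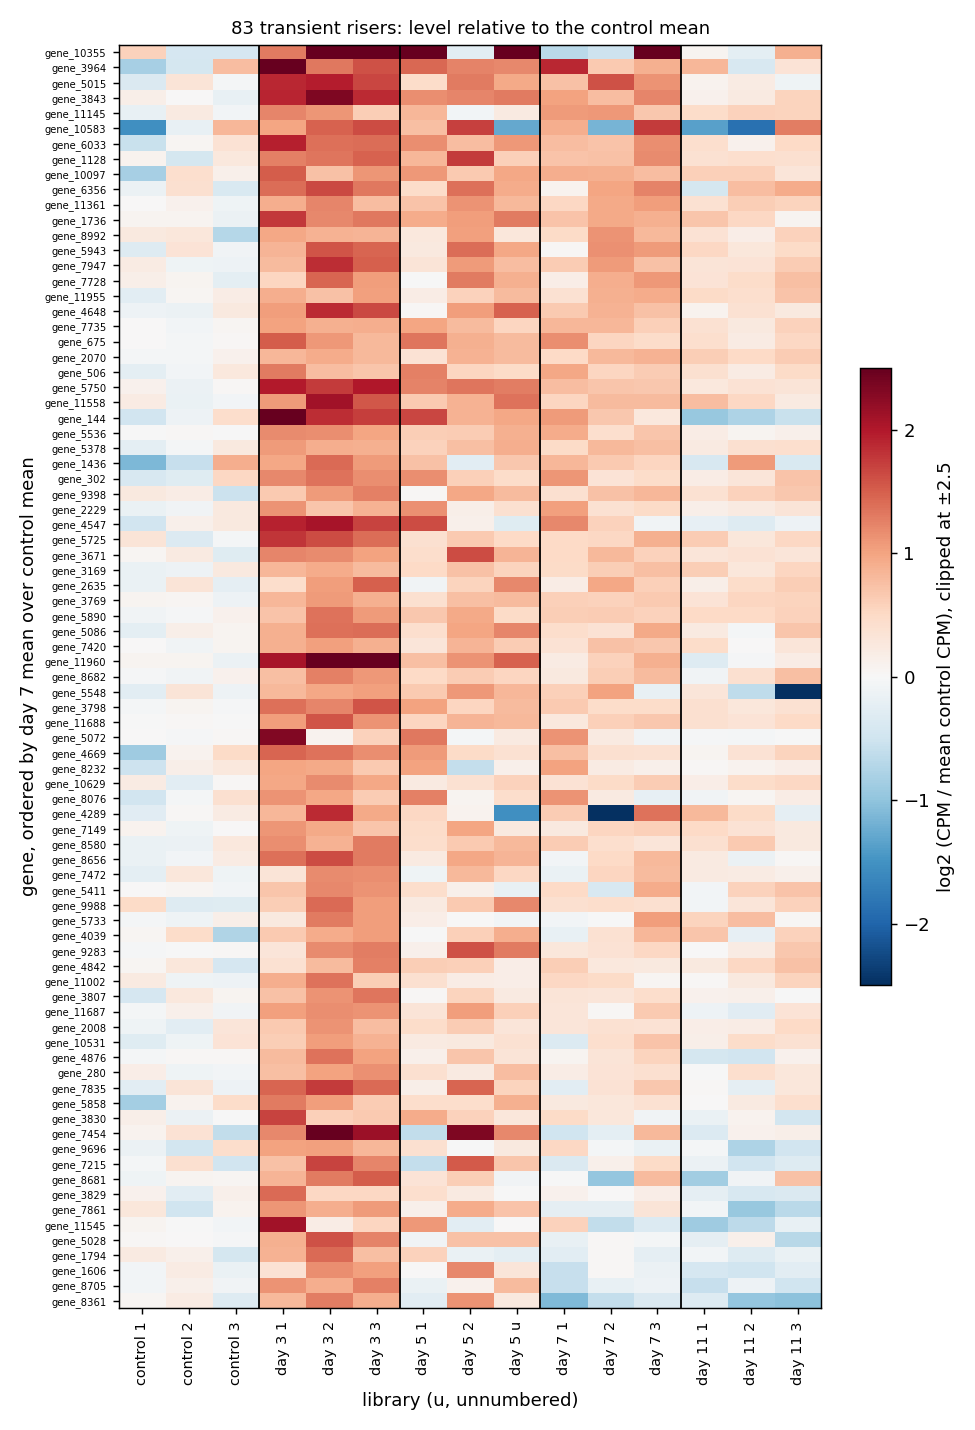
Each row is 1 of the 83 genes and each column 1 of the 15 libraries, with control at the left and day 11 at the right; colour is the log2 ratio of CPM to the mean of the control libraries, clipped at the ends of the scale. Genes are ordered by the day 7 mean over control. Among the days with wood, the colours are deepest at day 3, paler at days 5 and 7, and closest to white at day 11.

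Together the members took up 0.831% ± 0.0356 of all counts in the control, 2.53% ± 0.164 at day 3, 1.91% ± 0.0741 at day 5, 1.72% ± 0.0411 at day 7 and 1.37% ± 0.0618 at day 11 (SD, n = 3 each). A single gene, gene_1736, carried a large part of that. Without it the shares were 0.592% ± 0.0411 in the control, 1.71% ± 0.104 at day 3, 1.25% ± 0.0834 at day 5, 1.14% ± 0.0227 at day 7 and 0.932% ± 0.0806 at day 11. The order of the groups was the same with and without it.

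gene_1736 was the second most abundant of the reference genes at day 3, both by CPM and by FPKM, a level scaled by transcript length, with 3918.2 ± 930.9 FPKM. Its control libraries held 3110.9, 3112.6 and 2692.2 CPM, those of day 3 held 10139.9, 6875.6 and 7389.1 CPM, those of day 5 held 5663.9, 6128.6 and 7287.7 CPM, those of day 7 held 4838.7, 5711.6 and 5509.2 CPM, and those of day 11 held 4777.5, 4263.2 and 3104.4 CPM. Every library of days 3, 5 and 7 lay above every control library. A single day 11 library overlapped the control. The next members by length-scaled level at day 3 were gene_8682 with 917.8 FPKM and gene_4669 with 910.4 FPKM, and the lowest was gene_11145 with 2.46 FPKM. The median member had 46.8 FPKM at day 3, against 12.4 FPKM over all genes. By FPKM, 26 of the 83 members were among the 1000 most abundant of the 12038 reference genes. The choice itself favours high day 3 levels, since it set a minimum CPM and a minimum ratio to control there.

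Among the other members with the highest day 3 means, 4 had a similar course. gene_8682 averaged 712.4 ± 52.0 CPM in control cultures, 1475.4 ± 255.7 at day 3, 1048.6 ± 58.0 at day 5, 1053.5 ± 199.9 at day 7 and 939.5 ± 265.1 CPM at day 11. gene_4669 averaged 495.9 ± 215.7 CPM in control cultures, 1247.2 ± 126.9 at day 3, 789.3 ± 211.2 at day 5, 709.3 ± 105.1 at day 7 and 628.5 ± 102.8 CPM at day 11. For both, the spread of the control or of day 11 was as wide as the distance between those groups. gene_302 averaged 321.4 ± 119.7 CPM in control cultures, 757.7 ± 55.1 at day 3, 548.7 ± 145.8 at day 5, 512.1 ± 152.4 at day 7 and 431.6 ± 86.7 CPM at day 11. gene_4876 averaged 340.8 ± 9.15 CPM in control cultures, 715.9 ± 140.3 at day 3, 451.7 ± 92.6 at day 5, 426.4 ± 71.3 at day 7 and 288.8 ± 69.9 CPM at day 11. Of these 4, gene_4876 alone had a day 11 mean under its control mean.

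gene_11688 had the tightest control libraries of this group, with 277.5, 285.5 and 277.7 CPM. It held 580.9, 831.0 and 608.1 CPM at day 3, 407.6, 506.7 and 493.2 CPM at day 5, 337.4, 425.7 and 448.9 CPM at day 7, and 370.3, 355.6 and 394.9 CPM at day 11. None of its 12 libraries with wood overlapped the control, and its day 7 and day 11 libraries overlapped each other. gene_8992 and gene_9283 departed from this course. gene_8992 averaged 295.6 ± 100.3 CPM in control cultures, 549.1 ± 22.3 at day 3, 438.7 ± 138.4 at day 5, 525.3 ± 117.0 at day 7 and 382.2 ± 54.8 CPM at day 11, so that its day 7 mean was close to its day 3 mean. gene_9283 held 285.2, 797.5 and 646.1 CPM at day 5, where its mean of 576.3 CPM was above its day 3 mean of 521.8 CPM. Its low libraries at both days were those of the first series.

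The largest ratio of day 3 to control belonged to gene_11960, at 5.43. It held 21.5, 21.6 and 18.5 CPM in control cultures, 85.3, 133.6 and 115.4 CPM at day 3, 34.7, 44.5 and 57.3 CPM at day 5, 23.8, 30.8 and 37.9 CPM at day 7, and 16.3, 20.2 and 23.4 CPM at day 11. Day 5 stood clear of both control and day 3, and day 11 overlapped the control. gene_5750 had close replicates in every group: 10.7, 8.87 and 10.1 CPM in control cultures, 39.0, 33.1 and 39.7 CPM at day 3, 23.4, 25.0 and 23.8 CPM at day 5, 16.8, 16.1 and 15.8 CPM at day 7, and 11.9, 12.6 and 12.3 CPM at day 11. No library of any day overlapped that of another day or of the control. gene_144 held 39.4, 50.2 and 74.2 CPM in control cultures, 336.0, 195.3 and 180.8 CPM at day 3, a mean of 126.4 ± 40.3 CPM at day 5, 114.7, 86.8 and 65.5 CPM at day 7, and 28.2, 32.1 and 37.3 CPM at day 11. Its day 11 libraries were all below its control libraries.

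gene_3843 and gene_4547 had much the same means at day 3 and different spreads later. gene_3843 averaged 122.9 ± 14.2 CPM in control cultures, 506.7 ± 95.6 at day 3, 288.0 ± 15.0 at day 5, 248.2 ± 37.5 at day 7 and 152.1 ± 25.8 CPM at day 11. gene_4547 averaged 132.9 ± 32.6 CPM in control cultures, 495.2 ± 64.6 at day 3, 220.9 ± 164.0 at day 5, 209.4 ± 90.4 at day 7 and 114.3 ± 7.60 CPM at day 11. The day 5 libraries of gene_4547 held 409.1, 145.2 and 108.3 CPM, so that only replicate 1 was far from the control. gene_3964 was lower, with 5.27, 6.94 and 16.01 CPM in control cultures, 54.8, 23.5 and 28.3 CPM at day 3, and 25.4, 22.2 and 21.7 CPM at day 5. It was above control in all libraries of day 5 and in replicates 1 and 3 of day 7, which held 34.8 and 17.4 CPM.

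**Figure D2:**
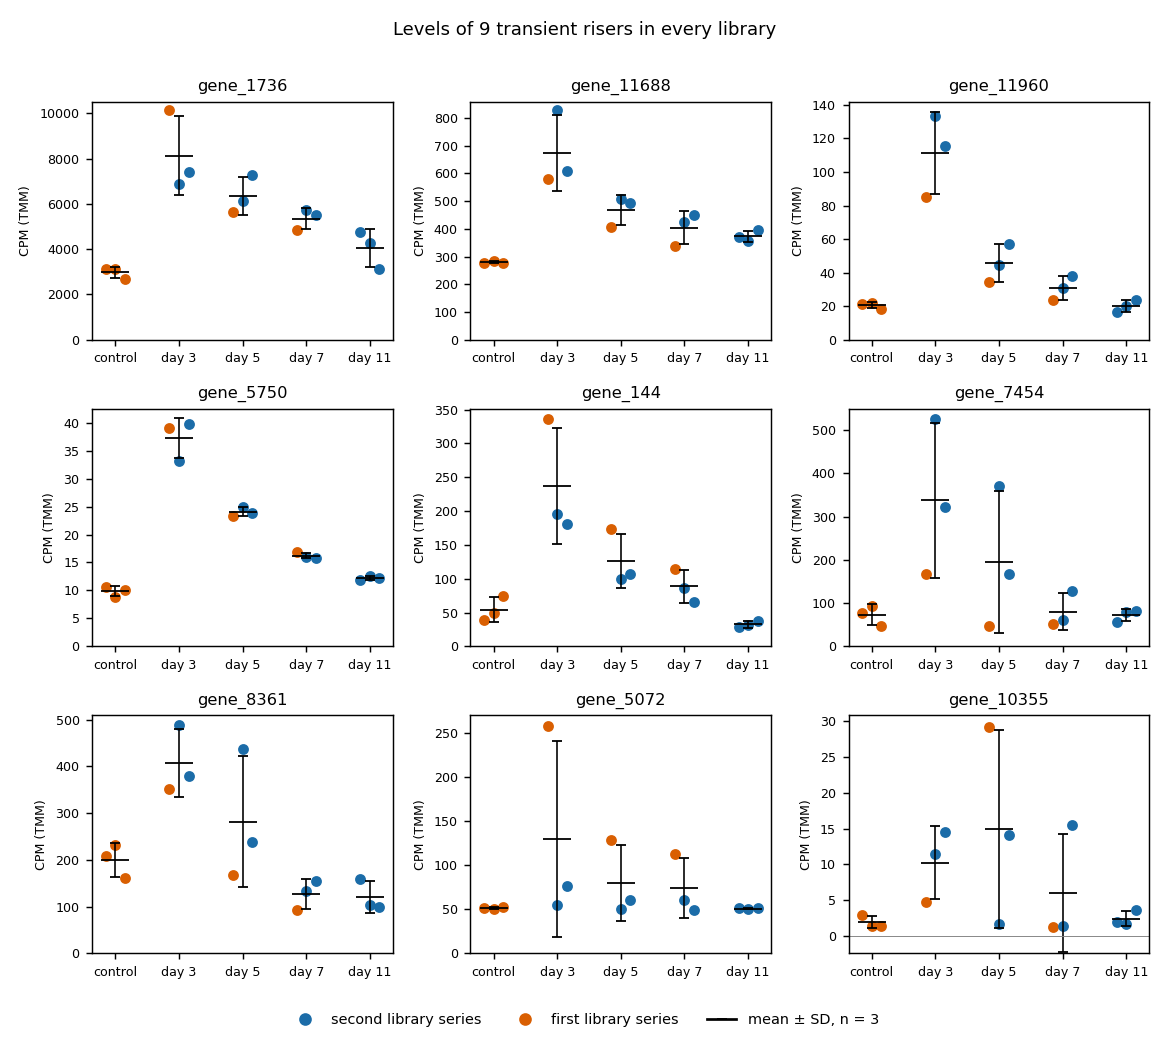
CPM of 9 members in every library, by group from control to day 11, coloured by library series, with the mean and SD of the 3 libraries; each vertical axis starts at 0 except that of gene_10355, whose SD bar at day 7 reaches below 0. gene_5750 steps down from day 3 to day 11 with no overlap between days, and gene_5072 is high in the first-series library of each of days 3, 5 and 7.

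All day 5 libraries lay above all control libraries in 40 of the 83 members (48.2%), where 20.7% of all genes did. All day 7 libraries lay above all control libraries in 42 members (50.6%), where 22.7% of all genes did. Both held for 33 members and neither for 34, and the shares of all genes for these are not given here. The control libraries were part of the choice and are shared by all these counts, so none is a test. Scaled by library totals, the day 5 count was 70 members beside 40.5% of all genes. Measured against the distance between day 3 and control, the median member kept 48.9% of it at day 5 (quartiles 33.1% and 60.3%) and 37.5% at day 7 (quartiles 23.7% and 50.5%). Less than 50% was left in 43 members at day 5 and in 61 at day 7. The choice favours a wide distance between day 3 and control, so the parts left are a description. They have no background over all genes here.

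A cut of 1.5-fold over the control mean at days 5 and 7 divides the members into 4 courses, by levels and with no test. In 36 members the mean was 1.5-fold or more at both days, and their medians were 2.36 times control at day 3, 1.87 at day 5, 1.65 at day 7 and 1.30 at day 11. In 19 the mean was that high at day 5 alone, with medians of 2.15 at day 3, 1.61 at day 5, 1.34 at day 7 and 1.03 at day 11. In 23 it was below 1.5-fold at both days, with medians of 2.03 at day 3, 1.25 at day 5, 1.28 at day 7 and 1.14 at day 11. The remaining 5, gene_8992, gene_1436, gene_11955, gene_5725 and gene_11145, were at 1.5-fold or more at day 7 alone; apart from gene_8992 and gene_11145 they are named after their values were seen. The cut depends on the scaling: with TMM 28 members were below it at day 5 and 42 at day 7, with library totals 4 and 12, and by FPKM 6 and 13.

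**Figure D3:**
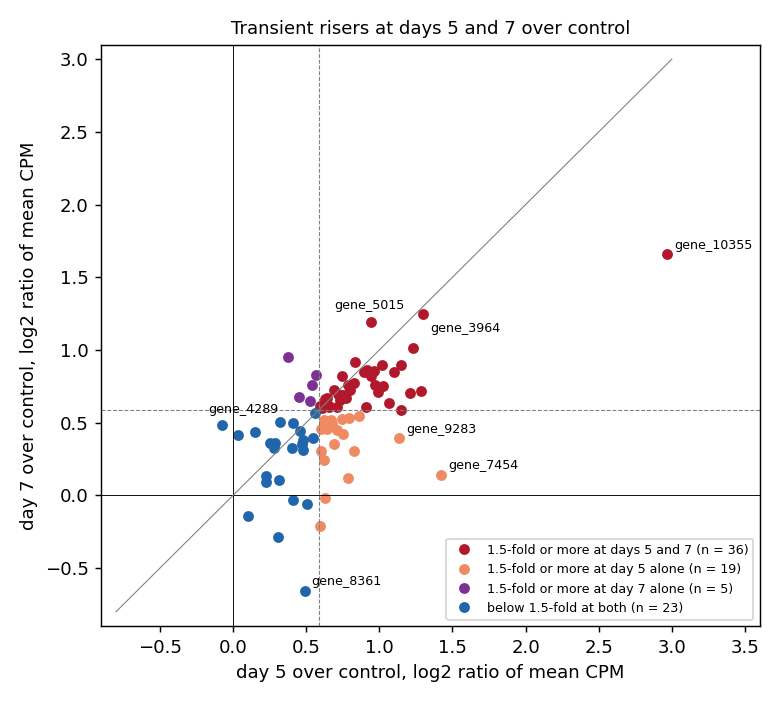
Each point is 1 of the 83 genes, placed by its mean at day 5 over control (horizontal) and at day 7 over control (vertical), both as log2 ratios of CPM; dashed lines mark 1.5-fold and the diagonal equal ratios. More points lie under the diagonal than over it, 36 genes lie above both dashed lines, and gene_8361 is lowest at day 7.

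The ratios of day 5 to control ran from 0.951 to 7.83. gene_10355 had the largest, and it rests on low and uneven counts: its control libraries held 2.87, 1.43 and 1.44 CPM, those of day 3 held 4.70, 11.48 and 14.6 CPM, those of day 5 held 29.3, 1.59 and 14.1 CPM, and those of day 7 held 1.20, 1.34 and 15.6 CPM. Day 5 and day 7 both overlapped the control. gene_7454 came next, with 77.5, 94.6 and 47.6 CPM in control cultures, 167.7, 525.1 and 322.2 CPM at day 3, 47.9, 371.6 and 168.0 CPM at day 5, and 51.6, 61.6 and 129.2 CPM at day 7. Its replicate 1 at day 5 was in the range of the control while the other 2 were above it.

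The smallest ratios of day 5 to control were those of gene_4289, gene_5733, gene_1794 and gene_5411. gene_4289 averaged 5.31 ± 0.875 CPM in control cultures, 13.0 ± 5.47 at day 3, 5.05 ± 2.96 at day 5 and 7.41 ± 6.60 CPM at day 7, and it was the only member with a day 5 mean below control. Its day 7 libraries held 8.24, 0.434 and 13.6 CPM, a 31.2-fold range. gene_5733 averaged 129.4 ± 12.2 CPM in control cultures, 246.4 ± 85.0 at day 3, 132.7 ± 11.2 at day 5 and 172.6 ± 80.7 CPM at day 7. gene_1794 averaged 10.6 ± 2.43 CPM in control cultures, 21.8 ± 5.72 at day 3, 11.4 ± 3.82 at day 5 and 9.57 ± 1.1 CPM at day 7. gene_5411 averaged 136.0 ± 5.35 CPM in control cultures, 276.2 ± 49.3 at day 3, 150.5 ± 32.2 at day 5 and 184.2 ± 77.6 CPM at day 7. The day 5 means of all 4 lay within 1 SD of their day 5 libraries from the control mean.

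Day 7 against day 5 was the one comparison between days whose levels set no condition of the choice, other than the limit on the range, and no member passed it. With edgeR's quasi-likelihood test on the 6 libraries, with day and library series as terms and Benjamini-Hochberg adjustment over 11052 genes, 0 of the 83 had an adjusted p under 0.05 with a 2-fold change, and the background was 0.00905%, or 1 gene. The smallest adjusted p of a member was 0.684, that of gene_5750. The fit had 3 residual degrees of freedom. With DESeq2 in place of edgeR, gene_8361 alone had an adjusted p under 0.05 with a 2-fold change, where 0.489% of all genes did. With no demand on the size, 5 members had an adjusted p under 0.05 by DESeq2. The share of all genes at that looser limit is not given here, so the 5 have no background beside them.

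Without adjustment, p was under 0.05 (edgeR) in 12 members that were lower at day 7 than at day 5 (14.5%), where 3.49% of all genes were, and in 1 that was higher (1.20%), where 2.99% of all genes were. These 13 members became 7 without day 7 replicate 2 and 3 in a fit without the library series term, and were 7 to 12 without any 1 library. The log2 fold change was below 0 in 62 members (74.7%), against 50.5% of all genes, with a median of -0.12 in the members and -0.0026 over all genes. Of the 124 genes that failed the day 11 condition alone, 3 were lower at unadjusted p under 0.05 (2.42%) and the median log2 fold change was -0.06. Those 124 had a median of 2.53 times control at day 3, 2.08 at day 5, 1.99 at day 7 and 1.82 at day 11. The difference between these 124 and the members was not tested.

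gene_8361 was among the members with the lowest fold changes. It held 92.8, 133.5 and 155.3 CPM at day 7, against 166.9, 438.2 and 238.9 CPM at day 5. The lowest day 5 library was just above the highest of day 7, and the day 5 libraries were spread widely. The log2 fold change was -1.103 (SE 0.26), with an adjusted p of 0.746 by edgeR and of 0.00684 by DESeq2. The control libraries held 208.2, 232.4 and 161.1 CPM, and all 3 day 7 libraries were below them, as in 1 other member, gene_8705 (2 of 83 or 2.41%, against 20.6% of all genes).

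gene_5750 differed less in size and more evenly, with a log2 fold change of -0.57 (SE 0.10) for day 7 over day 5, an adjusted p of 0.684 by edgeR and of 3.73e-06 by DESeq2. All day 7 libraries were below all day 5 libraries in 3 members (3.61%), gene_8361, gene_5750 and gene_5858, against 3.32% of all genes; gene_5858 is named after its values were seen. In no member were all day 7 libraries above all day 5 libraries, against 3.67% of all genes. By the ratio of means, gene_10355, gene_7454, gene_8361 and gene_1606 were lowest at day 7 relative to day 5. gene_1606 averaged 29.2 ± 5.92 CPM at day 7 and 50.9 ± 23.1 CPM at day 5. gene_11145, gene_4289, gene_5733 and gene_5411 were highest, and of these gene_11145 averaged 6.19 ± 0.941 CPM at day 7 and 4.15 ± 1.34 CPM at day 5. The days overlapped for gene_11145, since replicate 1 of day 5 lay above the lowest day 7 library.

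By day 11, the mean of 65 members (78.31%; 53.97% of all genes) was still above their control mean. That of 18 (21.69%; 45.35% of all genes) was at or below it. All day 11 libraries were above all control libraries in 20 members (24.1%; 25.5% of all genes) and below them in 5 (6.02%; 21.2% of all genes), namely gene_8361, gene_8705, gene_11545, gene_144 and gene_1606. gene_8705 is named after its values were seen. These counts describe values the choice used. Scaled by library totals in place of TMM, the median over all genes was 0.37 log2 above control at day 3 and 0.50 above it at day 11. On that scale the median of the members was 1.41 log2 above control at day 3 and 0.75 at day 11, and 28 of the 83 were below 1.5-fold at day 11. Relative to the median of all genes, the members stood 1.03 log2 above control at day 3 and 0.25 at day 11 with either scaling. How near to control the members were at day 11 was thus a statement relative to the bulk of genes.

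Some members, like some of all genes, differed between the library series. At days 5 and 7, 6 of the 83 (7.23%) differed between second and first series with an adjusted p under 0.05 and 2-fold or more (edgeR, same fit), where 3.51% of all genes did. gene_5943 was higher in the second series, and gene_11545, gene_5072, gene_8076, gene_4547 and gene_8232 were lower in it. The rule for naming genes covered the first 5 by adjusted p, and gene_8232 was added after its values were seen. The calls rested on few libraries, over all genes as in the members. Without day 7 replicate 3, 0 members and 7 of all genes were called, where 388 of all genes were in the full fit. Without day 5 replicate 2 it was 2 members and 241 of all genes. Leaving out replicate 1 of day 5 or day 7 leaves the first series with 1 library, so calls of those fits are not given. With no demand on the size, 20 members (24.1%) passed, where 18.4% of all genes did: 9 were higher in the second series (10.8%; 10.3% of all genes) and 11 lower (13.3%; 8.08% of all genes). Those 20 became 0 without day 7 replicate 3. They became 6 to 10 without day 5 replicate 2, day 7 replicate 2 or the unnumbered day 5 library. The shares of all genes at that limit in these fits are not given here.

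gene_5072 held 50.01 and 60.3 CPM at day 5 and 60.6 and 48.5 CPM at day 7 in the second series, against 128.3 CPM at day 5 and 112.6 CPM at day 7 in the first. The log2 fold change of second over first was -1.14 (edgeR, adjusted p = 0.0148). At day 3, which was not in that fit, it held 54.6 and 76.6 CPM in the second series and 257.5 CPM in the first, while its control libraries held 51.8, 50.5 and 52.5 CPM. Outside the first series, day 3 replicate 3 was its only library more than 10 CPM above the highest control library. gene_11545 was similar, with 159.9 and 204.8 CPM at day 3 in the second series and 602.3 CPM in the first, against 147.4, 139.9 and 133.4 CPM in the control. Its second-series libraries held 117.3 and 142.1 CPM at day 5 and 91.0 and 110.9 CPM at day 7, against 299.2 and 209.4 CPM in the first series at those days (log2 fold change -1.14, edgeR adjusted p = 0.0135). gene_5943 ran the other way, with 44.6 and 41.0 CPM at day 3 in the second series and 27.0 CPM in the first, against 11.9, 19.0 and 14.0 CPM in the control. Its second-series libraries held 39.6 and 29.1 CPM at day 5 and 32.8 and 31.2 CPM at day 7, against 17.7 and 15.2 CPM in the first (log2 fold change 1.01, edgeR adjusted p = 0.0212). In both genes the first-series library lay outside the range of the second at each of these days.

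gene_4547, gene_8076 and gene_8232 differed between the series at days 5 and 7 and less so at day 3. For gene_4547 the log2 fold change was -1.33 (edgeR, adjusted p = 0.0410), and its day 3 libraries held 556.5 and 427.8 CPM in the second series and 501.2 CPM in the first. gene_8076 had a log2 fold change of -1.06 (edgeR, adjusted p = 0.0237) and gene_8232 one of -1.02 (edgeR, adjusted p = 0.0459). All 6 lay on the same side at day 3 as at days 5 and 7, as did 63 of the 83 members (75.9%) and 66.2% of all genes. Across members, the day 3 difference and that of days 5 and 7 had a Pearson r of 0.59 (0.22 over all genes). Their Spearman rho was 0.54 (0.40 over all genes). These are points across genes that share the same libraries and are given as a description. The choice of members used the day 3 libraries, so neither these values nor the shares on the same side are a test.

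**Figure D4:**
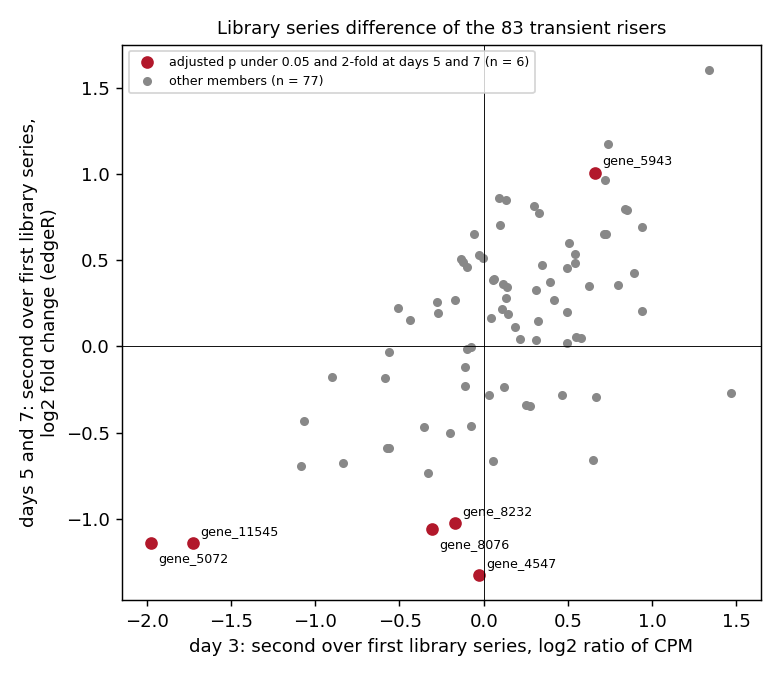
Each point is 1 of the 83 genes, placed by the log2 ratio of second- to first-series CPM at day 3 (horizontal) and by the edgeR log2 fold change of second over first series at days 5 and 7 (vertical); the 6 named genes passed an adjusted p under 0.05 with 2-fold or more. gene_5072 and gene_11545 lie lowest at day 3, and gene_5943 is the one named gene on the positive side.

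Within each series the median member was highest at day 3. The choice itself favours this, since it set day 3 above control and, in the second series, above day 11. In the first series each day has 1 library. There the median was 2.01 times control at day 3, 1.37 at day 5 and 1.40 at day 7. Gene by gene, day 7 over day 5 had a median ratio of 0.933 in that series. Day 7 was above day 5 in 31 members (37.35%), against 50.59% of all genes. In the second series, which has no control, the median ratio to day 3 was 0.713 at day 5, 0.639 at day 7 and 0.527 at day 11. Its median ratio of day 7 to day 5 was 0.919, with day 7 above day 5 in 27 members (32.53%; 48.8% of all genes). Second-series day 3 libraries were at a median of 2.24 times control and the first-series library at 2.01. Of these, the 2.24 crosses the series, since all control libraries were in the first. Both the second-series mean and the first-series library were at 1.8-fold or more in 48 members. The first-series library was below 1.5-fold in 7 members and the second-series mean in 3, gene_5072 at 1.27, gene_11545 at 1.30 and gene_3829 at 1.43, the last named after its values were seen. The part of the library series in the levels of single members beyond these values was not tested.

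The members were close to all genes in transcript length. The median length implied by counts and FPKM was 1784.5 bases in the members and 1798.4 bases over all genes. The deposited length, which in newly assembled loci is the sum over all transcripts, had a median of 8291 bases in the members and 5167 over all genes. It was longest in gene_11687, at 176487 bases against an implied 5584 bases, and shortest in gene_10629, at 543 bases. gene_11687 averaged 118.9 ± 9.17 CPM in control cultures, 255.8 ± 13.6 at day 3, 191.5 ± 49.0 at day 5, 151.9 ± 33.4 at day 7 and 119.2 ± 28.0 CPM at day 11. gene_10629 averaged 4.42 ± 0.683 CPM in control cultures, 9.08 ± 0.793 at day 3, 5.86 ± 0.722 at day 5, 6.24 ± 0.593 at day 7 and 5.78 ± 0.733 CPM at day 11. Consecutive identifiers were held by 3 pairs of members, gene_3829 with gene_3830, gene_8681 with gene_8682 and gene_11687 with gene_11688, and whether they lie side by side in the genome is not given in the files.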

How the data were processed

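Per the labels' protocols, 15 libraries were made from poly-A RNA. Among the tools named, with no role, by the submitters' processing notes are StringTie, HISAT2, DESeq2 and DESeq 1.10.1. The sources used here do not give the genome build. Estimated counts for every gene, with a gene length, and FPKM values were deposited by the authors as tables, which per the file headers have 1 column per library; FPKM is scaled by length and mapped fragments and served for levels between genes and as an alternative. The deposited counts are whole numbers and were used as they stand. An unnumbered day 5 count column was placed by the FPKM table: in 29 of 29 loci it lay within 2% of the column titled as day 5 replicate 3, a library of the second series. How reads shared by paralogs or overlapping genes were counted is not stated.

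The members, gene lists and tests were chosen with earlier results of these data known. CPM were scaled by TMM over all 12885 rows and 15 columns (R 4.3.3, edgeR 4.0.16). Days 5 and 7 were compared by edgeR's robust quasi-likelihood fit on 6 libraries, with day and library series as terms, over 11052 genes passing filterByExpr; a call was an adjusted p (Benjamini-Hochberg) below 0.05 together with a 2-fold change. The biological coefficient of variation was 34.0%. The SE of a log2 fold change is its size divided by the square root of the F statistic. On simulated data the sizes of change were recovered and unchanged genes passed an unadjusted p at close to the nominal rate, but the share of false calls was above the nominal level, and less so without the robust option. P-values measure the spread between libraries. Replicates differed by more than counting noise, with a chi-square of 111.7 to 343.2 times its degrees of freedom.

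Named members are the 8 with the highest day 3 mean, the 8 with the largest ratio of day 3 to control, the 4 largest and 4 smallest ratios of day 5 to control and of day 7 to day 5, up to 5 called per test, the longest and shortest, and the 2 genes on either side of each limit. Alternatives were DESeq2 1.42.0, limma 3.58.1 on log2(FPKM + 1) and log2(FPKM + 0.1), other scaling factors and filters, no robust option, all 15 libraries in the fit, single series, a replicate block and leaving out each library.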

Additional observations from a re-analysis of the deposited data

How the results depend on the processing

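For day 7 against day 5, 0 members were called under every setting and without any single library, except that DESeq2 called 1. The numbers of day 5 and day 7 replicates were not shown to pair the samples (correlations of deviations 0.449 for replicates 1, which share the first series, and 0.0932 for replicates 2); with a replicate block, 1 residual degree of freedom remained, 0 members were called and 9 had an unadjusted p under 0.05. For the library series, leaving out 1 library gave 0 to 5 calls, beside 7 to 274 of all genes. That range leaves out the fits without replicate 1 of day 5 or day 7. In those, the first series had 1 library, and its spread was taken to be that of the others. The other settings gave 4 to 7 calls, beside 304 to 656 of all genes. Scaling moved the levels: the log2 medians over control were 1.41 at day 3, 1.06 at day 5, 1.00 at day 7 and 0.75 at day 11 by library totals, 1.385, 1.01, 0.99 and 0.73 by FPKM, and 0.45 at day 5 in the first series alone. All day 5 libraries were above all control libraries in 70 members by totals (40.5% of all genes) and 67 by FPKM (38.4% of all genes). With TMM the share of all genes was 20.7%. The excess left at day 5 was 58.9% by totals and 37.3% in the first series alone, and at day 7 55.0% by totals and 53.8% by FPKM. The members' share was 2.06% at day 5 and 1.86% at day 7 by FPKM, and 1.83% and 1.67% in the first series alone. In an alternative added after seeing the data, leaving out 1 library gave 86 to 136 members. Without 1 library, the log2 medians over control ran from 1.03 to 1.17 at day 3, 0.60 to 0.75 at day 5, 0.52 to 0.60 at day 7 and 0.24 to 0.35 at day 11. Beyond what each setting changes by construction, the cause was not tested. What depth limits in the low members was not tested.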
